A study of Mus musculus with 8 samples.

Results

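Transcripts of 10 genes, 6 β-tubulins (Tubb5, Tubb2a, Tubb2b, Tubb3, Tubb4b and Tubb6), 3 α-tubulins (Tuba1a, Tuba1b and Tuba1c) and the stathmin gene Stmn1, were followed in single islet cells of mice. The genes were chosen by symbol, with their levels in these data already known, and all 10 were present among the 24421 genes of each of the 8 count tables. The samples were pancreatic islets of 8-week-old male C57BL/6J mice, 4 from the control group, which had no operation, and 4 from the PPTx group, taken 2 days after partial pancreatectomy (PPTx) that removed 50% of the pancreas. Each sample was pooled from 1 to 3 mice, and the control mice had no sham surgery, so surgery and tissue loss cannot be told apart. Levels are described across islet cell types defined by their hormone transcripts, across β-cells with and without transcripts of the mitotic genes Top2a or Cdk1, and between the PPTx and control group.

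Microtubules are polymers of αβ-tubulin dimers, and each part of the dimer is encoded by a family of genes, the isotypes, whose proteins differ mainly at the carboxyl tail. In endocrine cells of the islet the interphase microtubule network carries and positions hormone granules, whereas a dividing cell takes its network apart and builds a spindle from the same dimers. Stathmin, the product of Stmn1, binds free dimers and promotes the disassembly of microtubules until mitotic kinases phosphorylate it. Top2a encodes the topoisomerase that untangles replicated chromosomes, and Cdk1 the kinase that drives entry into mitosis.

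Of 1240 cells, 1232 passed the limits on genes and unique molecular identifiers (UMIs, each standing for 1 captured transcript), and the 8 samples held 236645 to 1580152 UMIs. A cell was assigned to the hormone with the largest share of its UMIs, if that share was at least 5% and at least 3 times the next one. This gave 937 β-cells, 110 α-cells, 124 PP-cells, 9 δ-cells and 1 ε-cell, and 51 cells with mixed hormones were left out. Markers that had no part in the rule followed these names, except that Mafa had only 1 UMI in the β-cells without Top2a or Cdk1 UMIs and Aqp3, a PP marker, had none in the PP-cells. Of the β-cells, 46 had at least 1 UMI of Top2a or Cdk1 and 891 had none, and 2 α-cells and 1 PP-cell had such UMIs. The 46 cells were spread thinly, with 1, 1, 4 and 4 in the control and 7, 15, 9 and 5 in the PPTx samples, and 24 of them rested on 1 UMI. One barcode occurred in more than 1 sample. Levels are given in CPM, the UMIs of a gene per 1000000 UMIs of the summed cells of a sample. UMIs are counted at the 3′ end of a transcript, so they need no correction for transcript length, and intervals on pooled counts cover counting error only.

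Across β-cells, α-cells and PP-cells the levels of the abundant tubulins overlapped between samples over both groups, and Tubb3 alone had UMIs in one of these types only. Tuba1a, which lies at chr15:98949847-98953501 (GRCm38) and encodes an α-tubulin known for its abundance in neurons, was the α-tubulin with the most UMIs in each of the 3 types. In cells without Top2a or Cdk1 UMIs its level was 127 ± 33.5 CPM (SD, n = 8 samples) in β-cells, 197.5 ± 114.5 CPM (SD, n = 5) in α-cells and 138 ± 48.6 CPM (SD, n = 7) in PP-cells. Tubb5, a broadly expressed β-tubulin at chr17:35833920-35838301, stood at 72.3 ± 38.4 CPM in β-cells, 76.2 ± 54.1 CPM in α-cells and 73.2 ± 43.3 CPM in PP-cells over the same samples. The order of these means was α-cells, PP-cells and β-cells for both genes. Neighbours in that order differed by less than the larger of their SDs between samples. The order of Tuba1a turned with the group, on 1 PPTx α-cell sample. For Tuba1a the control means were 98.4 CPM in β-cells, 150 CPM in PP-cells and 219.7 CPM in α-cells, and the highest control β-cell sample, at 113 CPM, lay below the lowest control α-cell sample, at 139 CPM. In the PPTx group Tuba1a was at 156 CPM in β-cells, 128.5 CPM in PP-cells and 109 CPM in the 1 α-cell sample with at least 5 cells. For Tubb5 the control means were 41.0 CPM in β-cells, 74.0 CPM in PP-cells and 81.7 CPM in α-cells, and the PPTx values 103.5, 72.6 and 54.4 CPM in the same order. That PPTx α-cell value came from 2 UMIs in 5 cells. Pooled over all 14 PPTx α-cells Tubb5 was at 107.6 CPM, against 104.8 CPM in the pooled PPTx β-cells.

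Counts pooled over the samples mix the groups in different parts, with 362 control and 529 PPTx cells among the β-cells, 94 and 14 among the α-cells and 28 and 95 among the PP-cells without Top2a or Cdk1 UMIs, so they were compared within each group. In the control, the pooled level in β-cells was 0.447 times that in α-cells for Tubb5 (95% interval 0.310 to 0.659) and 0.5255 times for Tuba1a (0.404 to 0.692). Hormone transcripts took 58.9% of all UMIs in β-cells, 46.5% in α-cells and 50.5% in PP-cells. With the hormone genes left out of the totals these ratios became 0.625 (0.433 to 0.921) and 0.735 (0.5645 to 0.967). In the PPTx group, on 9 UMIs of each gene in α-cells, they were 0.974 (0.507 to 2.15) and 1.43 (0.749 to 3.15) with the hormones, and 1.22 (0.633 to 2.68) and 1.79 (0.936 to 3.94) without. Against PP-cells the Tubb5 ratio was 0.721 in the control (0.398 to 1.43) and 1.31 in the PPTx group (0.946 to 1.86), or 0.894 (0.494 to 1.78) and 1.52 (1.098 to 2.16) without the hormones. For Tuba1a it was 0.751 (0.498 to 1.18) and 1.235 (0.951 to 1.63), or 0.931 (0.617 to 1.46) and 1.435 (1.105 to 1.89). Whether the ratios differed between the groups was not tested. The 3 cells of these types with Top2a or Cdk1 UMIs weigh on the sums, since the PP-cell, in control replicate 2, held 11 UMIs of Tubb5 and the α-cells, in control replicate 3 and PPTx replicate 2, held 4 and 7.

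**Figure D1:**
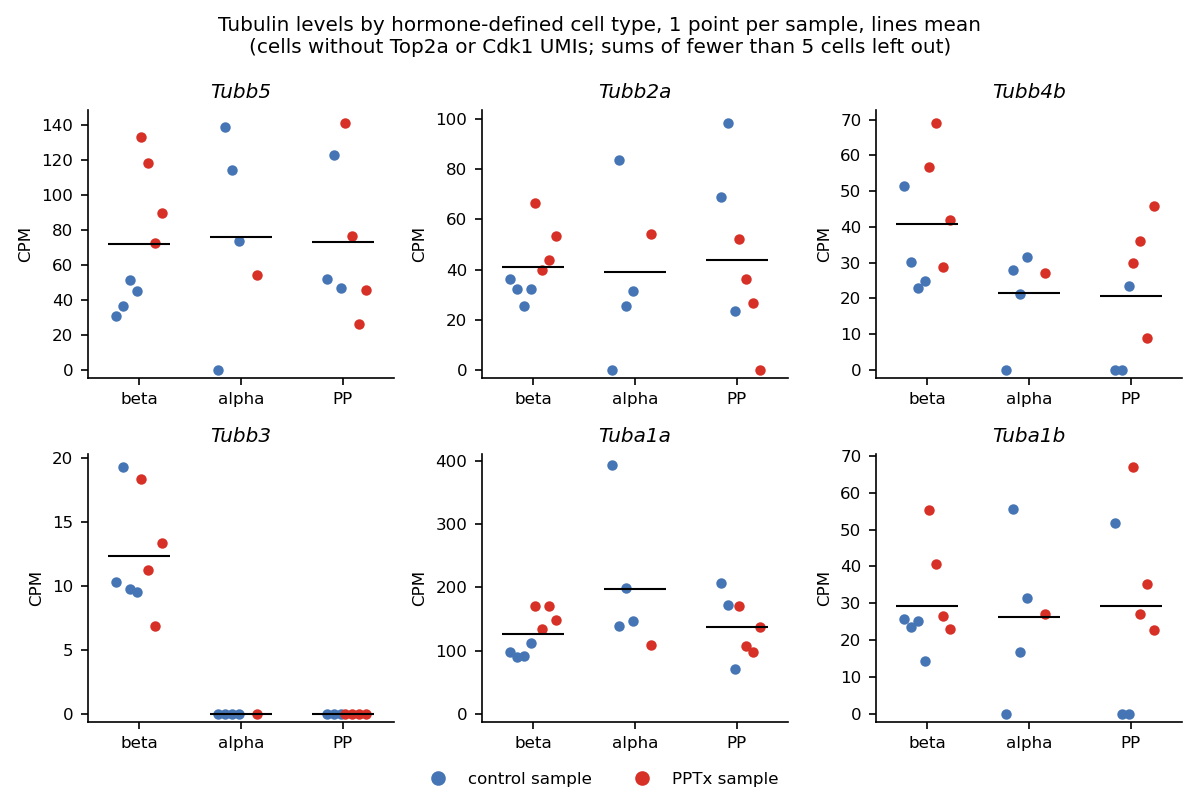
Levels (CPM) of 4 β-tubulins and 2 α-tubulins in β-cells, α-cells and PP-cells without Top2a or Cdk1 UMIs, with 1 point per sample, control in blue and PPTx in red, and lines at the means. Sums of fewer than 5 cells are left out, and Tubb3 is at 0 in every α-cell and PP-cell sum shown while all 8 β-cell samples lie between 6.91 and 19.3 CPM.

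Tubb3 was the member whose UMIs were seen in β-cells and not in α-cells or PP-cells. It encodes the class III β-tubulin, best known as a marker of neurons, and lies at chr8:123411553-123422015 on the plus strand. In β-cells without Top2a or Cdk1 UMIs its levels were 10.3, 19.3, 9.81 and 9.51 CPM in the control and 18.4, 11.2, 6.91 and 13.4 CPM in the PPTx samples, so every sample held some. All β-cells together held 75 UMIs of Tubb3 in 70 cells, whereas 110 α-cells and 124 PP-cells held 0 UMIs. A count of 0 allows up to 6.35 CPM in α-cells and 4.24 CPM in PP-cells. Against these limits the β-cell level was at least 1.87-fold higher than in α-cells and at least 2.80-fold higher than in PP-cells, or at least 2.43-fold and 3.37-fold higher with the hormone genes left out of the totals. In the δ-cells 1 UMI was found in 9 cells. Schwann cell markers were near 0 in the β-cells, with Sox10, S100b and Cdh19 at 0 UMIs and the summed level of the 5 markers at 5.75 to 15.0 CPM per sample.

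Tubb4b and Tubb2a were detected in β-cells, α-cells and PP-cells alike. Tubb4b, a broadly expressed β-tubulin at chr2:25222158-25224702, had 40.8 ± 16.9 CPM (SD, n = 8) in β-cells, 21.5 ± 12.6 CPM (SD, n = 5) in α-cells and 20.6 ± 18.0 CPM (SD, n = 7) in PP-cells without Top2a or Cdk1 UMIs. The pooled ratio to α-cells was 1.14 in the control (95% interval 0.569 to 2.59) and 1.07 in the PPTx group (0.411 to 3.985), or 1.595 (0.796 to 3.63) and 1.34 (0.514 to 4.98) without the hormone genes. To PP-cells it was 2.55 in the control (0.680 to 21.4), on 2 UMIs in PP-cells, and 1.75 in the PPTx group (1.03 to 3.20), or 3.16 (0.8435 to 26.6) and 2.04 (1.20 to 3.72). Tubb2a, found at chr13:34074278-34078008 and typical of neurons, had 41.2 ± 13.3, 38.95 ± 31.55 and 43.7 ± 32.6 CPM in the same order, a spread that covers all differences. The neighbouring gene Tubb2b at chr13:34127008-34130354 was nearly silent, with 3 UMIs in all β-cells, 0 in α-cells and 1 in PP-cells. Tubb6, at chr18:67390731-67402749, had 12, 2 and 0 UMIs. Because both were so low, no order of their levels was read.

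Tuba1b and Tuba1c completed the α-tubulins. Tuba1b, the α-tubulin typical of dividing and cultured cells, lies at chr15:98931429-98934390, next to Tuba1a. It stood at 29.3 ± 12.7 CPM in β-cells, 26.25 ± 20.4 CPM in α-cells and 29.2 ± 24.9 CPM in PP-cells without Top2a or Cdk1 UMIs, which overlapped. Tuba1c at chr15:99029891-99038105 was rarer, with 34 UMIs in all β-cells, 8 in α-cells and 6 in PP-cells, and its pooled level in all β-cells was 0.318 times that in α-cells (95% interval 0.144 to 0.794), or 0.413 times (0.188 to 1.03) without the hormones. Within the groups it was 0.386 times in the control (0.131 to 1.37) and 0.163 times in the PPTx group (0.0483 to 0.856). Without the hormones these became 0.539 (0.183 to 1.91) and 0.203 (0.0603 to 1.07). The PPTx values rested on 3 α-cell UMIs, all in PPTx replicate 2. Stmn1 at chr4:134468320-134473843 had 1 UMI in α-cells and 2 in PP-cells, both in the PP-cell with Top2a or Cdk1 UMIs. The 3 α-tubulin genes are close copies. Within the last 400 bases of their transcripts Tuba1a and Tuba1b share an identical run of 200 bases and Tuba1b and Tuba1c one of 194, so reads from those stretches could not be assigned to a gene. The run of Tuba1a ends 200 bases before the end of the transcript, and the last bases differ.

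In β-cells with Top2a or Cdk1 UMIs the isotypes parted. Tubb5, Tuba1b, Tubb4b, Tuba1c and Stmn1 stood higher in these cells. The pooled ratios of Tuba1a, Tubb2a and Tubb3 were lower, though still above 1. Since the choice of genes named this contrast, it is described without a test. Tubb5 was the one member higher in 8 of 8 samples. Its levels without Top2a or Cdk1 UMIs were 30.9, 36.5, 51.5 and 45.2 CPM in the control and 133, 118, 72.5 and 89.9 CPM in the PPTx samples. With them they were 4365, 1657, 806 and 634 CPM in the control and 724.5, 752, 519 and 760 CPM in the PPTx samples. The ranges did not overlap, although the first 2 control values came from 1 cell each. Pooled over the samples, 246 UMIs in 46 cells stood against 465 UMIs in 891 cells, a ratio of 9.26 (95% interval 7.91 to 10.8). Among the 2532 genes that passed the filter on low counts, 1.82% were higher in all 8 samples, from which nothing is read for genes chosen with this contrast known.

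**Figure D2:**
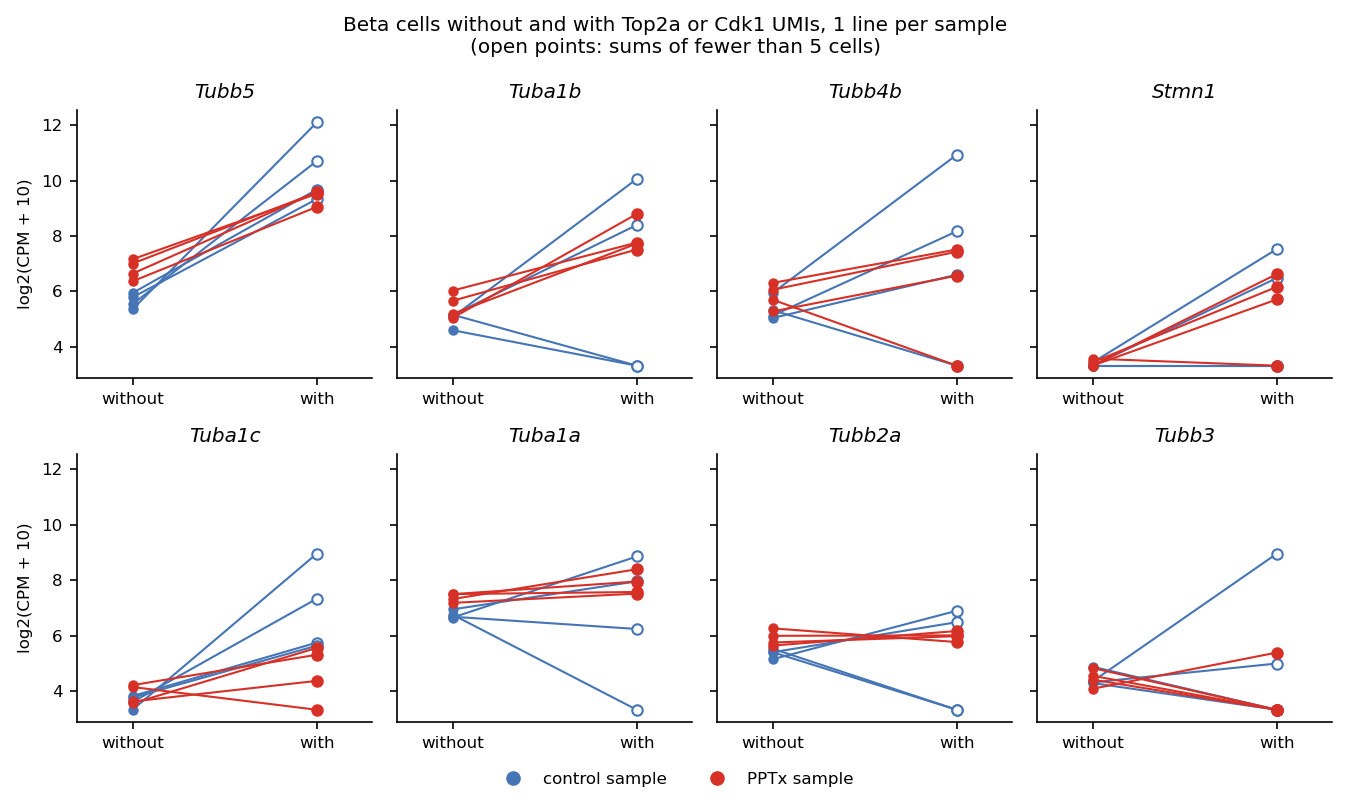
Levels of 8 members, as log2(CPM + 10), in β-cells without and with Top2a or Cdk1 UMIs, with 1 line per sample, control in blue and PPTx in red. Open points are sums of fewer than 5 cells. Tubb5 is the gene whose line goes up in all 8 samples, while lines of Tuba1a, Tubb2a, Tuba1b and Tubb4b go both ways.

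Tuba1b stood higher in most samples. Its levels with Top2a or Cdk1 UMIs were 0, 1054.5, 327 and 0 CPM in the control and 207, 173, 201 and 434 CPM in the PPTx samples, against 14.3 to 55.2 CPM without. It was higher in 6 of 8 samples, and the 2 samples at 0 were control sums of 1 and 4 cells. The pooled ratio was 7.49 (95% interval 5.66 to 9.83), from 77 against 180 UMIs. Tuba1c had a similar pooled ratio of 8.38 (3.69 to 17.9) on few counts, 11 against 23 UMIs, and was higher in 7 of 8 samples. Tubb4b gave 3.50 (2.51 to 4.79), from 48 against 240 UMIs, and was higher in 6 of 8 samples.

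Stmn1 was close to absent outside these cells. Its 3 UMIs in 891 β-cells stood against 25 UMIs in 14 of 46 cells, or 0.502 CPM against 73.2 CPM, a ratio of 146 with a 95% interval of 44.5 to 755. By sample the level with Top2a or Cdk1 UMIs was 0, 0, 174 and 79.3 CPM in the control and 88.7, 61.6, 42.4 and 0 CPM in the PPTx group. Stmn1 was thus found in 5 of 8 samples of such cells, in both groups. Tubb6, with 3 against 9 UMIs, had a ratio of 5.84 (1.02 to 23.4), and Tubb2b had 0 against 3 UMIs.

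The pooled ratios of the other isotypes were lower. By sample, Tuba1a was higher in 6 of 8, as were Tuba1b and Tubb4b, Tubb2a in 5 and Tubb3 in 3. Tuba1a had a pooled ratio of 1.48 (95% interval 1.13 to 1.90) and Tubb2a one of 1.54 (0.935 to 2.41), while Tubb3 came to 1.25 (0.394 to 3.06) from 5 UMIs. Without the hormone genes in the totals these ratios became 1.32, 1.38 and 1.12. The pools held 10 control and 36 PPTx cells with such UMIs against 362 and 529 without. In the control and the PPTx group the ratios were 20.1 (14.8 to 27.0) and 6.31 (5.23 to 7.60) for Tubb5, 12.7 (7.42 to 21.1) and 5.66 (4.04 to 7.84) for Tuba1b, and 7.01 (3.74 to 12.3) and 2.46 (1.64 to 3.59) for Tubb4b. For Tuba1c they were 19.0 (4.99 to 63.0) and 5.33 (1.68 to 14.8). Stmn1 gave 341 (48.6 to 14810), on 10 against 1 UMI, and 93.3 (21.7 to 841), on 15 against 2. For Tuba1a the ratios were 1.52 (0.777 to 2.70) and 1.31 (0.970 to 1.75), and for Tubb2a 2.99 (1.16 to 6.44), on 7 UMIs, and 1.10 (0.586 to 1.89). Fitted by edgeR with the sample as a block, the log2 difference was 2.93 ± 0.25 (SE) for Tubb5, 2.51 ± 0.29 for Tuba1b, 2.71 ± 0.83 for Tuba1c, 1.40 ± 0.32 for Tubb4b and 6.19 ± 0.84 for Stmn1. It was 0.11 ± 0.29 for Tuba1a and 0.20 ± 0.40 for Tubb2a, and Tubb3, Tubb6 and Tubb2b did not pass the filter. The median over all 2532 genes was -0.17. That median moved with the scaling, to -0.52 in cells thinned to 2700 UMIs and to -0.31 without hormone genes, and Tuba1a then lay at -0.02 and -0.04. In the cells with at least 2 such UMIs, against those with none, Tuba1a lay at -0.53, below a median of -0.40. Relative to the median of all genes Tubb5 stood 3.10 higher as fitted, 3.09 higher after thinning and 3.10 higher without hormones.

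Cells with Top2a or Cdk1 UMIs were slightly deeper, with a median of 6998 UMIs against 6063 UMIs, so shares of cells with a transcript were compared after thinning. Of 41 such cells with 2700 UMIs drawn, 75.6% had a Tubb5 UMI, against 17.3% of 811 other β-cells. For Tuba1b the shares were 48.8% and 7.27%, and for Stmn1 12.2% and 0.247%. Tuba1a was at 41.5% and 26.6%. Before thinning the shares for Tubb5 were 87.0% and 32.8%, and for Stmn1 30.4% and 0.337%. For comparison, 32.2% of all thinned α-cells and 16.8% of all thinned PP-cells had a Tubb5 UMI, at medians of 3974 and 5230 UMIs before thinning.

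Promoters of 7 of the 10 genes were at hand from RefSeq (GRCm38.p6), each of 300 bases around the transcription start. Those of the 3 abundant members with the higher ratios between cells with and without Top2a or Cdk1 UMIs, Tubb5, Tuba1b and Tubb4b, are shown first, and those of Tuba1a and Tubb2a, with lower ratios, after them. They are printed 5′ to 3′ in the direction of transcription, with capitals for matches on either strand to CCAAT, to TTTGAA or TTCGAA, the letters of the cell cycle homology region, or to the E2F letters TTTCCCGC, TTTCGCGC, TTTGGCGC and TTTGCCGC.
Tubb5, chr17:35838252-35838551, minus strand: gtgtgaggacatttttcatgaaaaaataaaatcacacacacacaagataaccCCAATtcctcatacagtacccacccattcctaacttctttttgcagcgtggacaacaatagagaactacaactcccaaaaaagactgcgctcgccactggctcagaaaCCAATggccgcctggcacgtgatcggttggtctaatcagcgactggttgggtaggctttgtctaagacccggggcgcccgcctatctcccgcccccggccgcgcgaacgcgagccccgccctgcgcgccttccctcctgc
Tuba1b, chr15:98934341-98934640, minus strand: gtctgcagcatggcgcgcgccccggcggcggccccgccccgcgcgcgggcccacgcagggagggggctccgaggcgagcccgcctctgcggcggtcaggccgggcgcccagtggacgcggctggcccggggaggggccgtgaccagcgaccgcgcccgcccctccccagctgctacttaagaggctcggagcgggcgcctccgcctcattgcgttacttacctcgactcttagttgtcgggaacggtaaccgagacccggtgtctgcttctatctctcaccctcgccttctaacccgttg
Tubb4b, chr2:25224653-25224952, minus strand: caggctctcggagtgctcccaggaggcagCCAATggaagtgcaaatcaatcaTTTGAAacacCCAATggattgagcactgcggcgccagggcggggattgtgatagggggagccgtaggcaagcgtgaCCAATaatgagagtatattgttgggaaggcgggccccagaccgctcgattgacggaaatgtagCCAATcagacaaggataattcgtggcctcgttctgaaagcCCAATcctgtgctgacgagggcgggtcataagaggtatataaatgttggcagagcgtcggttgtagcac
Tuba1a, chr15:98953452-98953751, minus strand: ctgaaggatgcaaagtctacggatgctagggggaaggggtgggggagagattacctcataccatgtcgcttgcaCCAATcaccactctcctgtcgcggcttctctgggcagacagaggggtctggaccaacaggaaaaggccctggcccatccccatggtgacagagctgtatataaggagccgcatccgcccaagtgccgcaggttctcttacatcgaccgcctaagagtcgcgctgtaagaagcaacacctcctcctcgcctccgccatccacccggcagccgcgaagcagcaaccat
Tubb2a, chr13:34077959-34078258, minus strand: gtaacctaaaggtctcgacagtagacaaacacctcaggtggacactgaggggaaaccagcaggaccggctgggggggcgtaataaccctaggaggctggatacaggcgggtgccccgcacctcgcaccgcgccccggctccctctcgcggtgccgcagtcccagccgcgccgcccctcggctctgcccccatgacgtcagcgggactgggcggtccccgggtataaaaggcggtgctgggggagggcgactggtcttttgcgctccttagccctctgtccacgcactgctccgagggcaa

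The promoters of Tubb5, Tuba1b and Tubb4b had no arrangement of these letters in common. Tubb5 held 2 CCAAT matches, Tubb4b held 5 together with 1 TTTGAA, and Tuba1b held none. Tuba1a held 1 CCAAT match and Tubb2a none, and no E2F match was found in any of the 7. Of 32851 promoters of the same length, 37.4% held at least 1 CCAAT, 11.7% at least 2 and 0.271% at least 5, while 19.2% held a cell cycle homology region match and 2.26% an E2F match. A match is a description of the letters and not a bound site.

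β-cells without Top2a or Cdk1 UMIs were then split by the replication licensing genes, a split the choice of members had not used. Mcm2 to Mcm7 encode the helicase loaded at origins, Gins2 a partner that activates it, and Pcna the sliding clamp of DNA polymerase. Tubb5 was higher in the cells with at least 2 UMIs of these 8 genes than in cells with none, by edgeR and by DESeq2. Tuba1b was called higher by edgeR and not by DESeq2. A β-cell without Top2a or Cdk1 UMIs can still hold transcripts of these genes that were not captured. The part of such cells in these differences was not tested, so no order in time is read from the split. Stmn1 was too rare to be tested, with 0 UMIs in the licensing cells. In the 6 samples with at least 3 cells of each kind, the Tubb5 level without and with licensing UMIs was 42.3 and 95.3 CPM in control replicate 3, 47.1 and 59.8 CPM in control replicate 4, 107.5 and 294.5 CPM in PPTx replicate 1, 80.6 and 225 CPM in PPTx replicate 2, 70.5 and 97.5 CPM in PPTx replicate 3 and 77.5 and 312 CPM in PPTx replicate 4. Tubb5 was higher in 6 of 6 samples, as were 1.61% of all genes tested. Its log2 difference was 1.20 ± 0.20 (SE, edgeR, adjusted p = 7.53e-07), and DESeq2 gave an adjusted p of 0.000301.

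Tuba1b differed by 1.20 ± 0.31 on the log2 scale (edgeR, adjusted p = 0.0261) and was higher in 5 of 6 samples, with 0 UMIs in the 5 licensing cells of control replicate 4. It was not called by DESeq2 (adjusted p = 0.252), nor after thinning (0.846), nor without the filter on low counts (0.276), and over all alternatives its adjusted p ran from 0.0084 to 0.846. In edgeR the adjusted p was 0.0578 without control replicate 3, 0.153 without PPTx replicate 1, 0.796 without PPTx replicate 2 and 0.0817 without PPTx replicate 4. Tubb5 was called under every alternative run, with an adjusted p of at most 0.00659. Tuba1a (0.30 ± 0.18, adjusted p = 0.886), Tubb4b (0.18 ± 0.32, adjusted p = 0.973) and Tubb2a (-0.29 ± 0.35, adjusted p = 0.970) were not called by edgeR. Thus 2 of the 5 members tested were called higher, where 0.377% of the 3983 genes tested outside the licensing genes were. Since the members were chosen with their levels and the Top2a or Cdk1 contrast known, no enrichment is read from these shares. Cells with at least 2 licensing UMIs were also deeper, with a median of 8248 UMIs against 5775 UMIs. In thinned cells the Tubb5 difference was 1.07 (edgeR, adjusted p = 0.00624). The thinned cells were sorted anew, by at least 1 licensing UMI against 0 after thinning. Cells whose Top2a or Cdk1 UMIs were lost by thinning then counted as without them. The thinned fit is therefore not a check of depth alone.

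**Figure D3:**
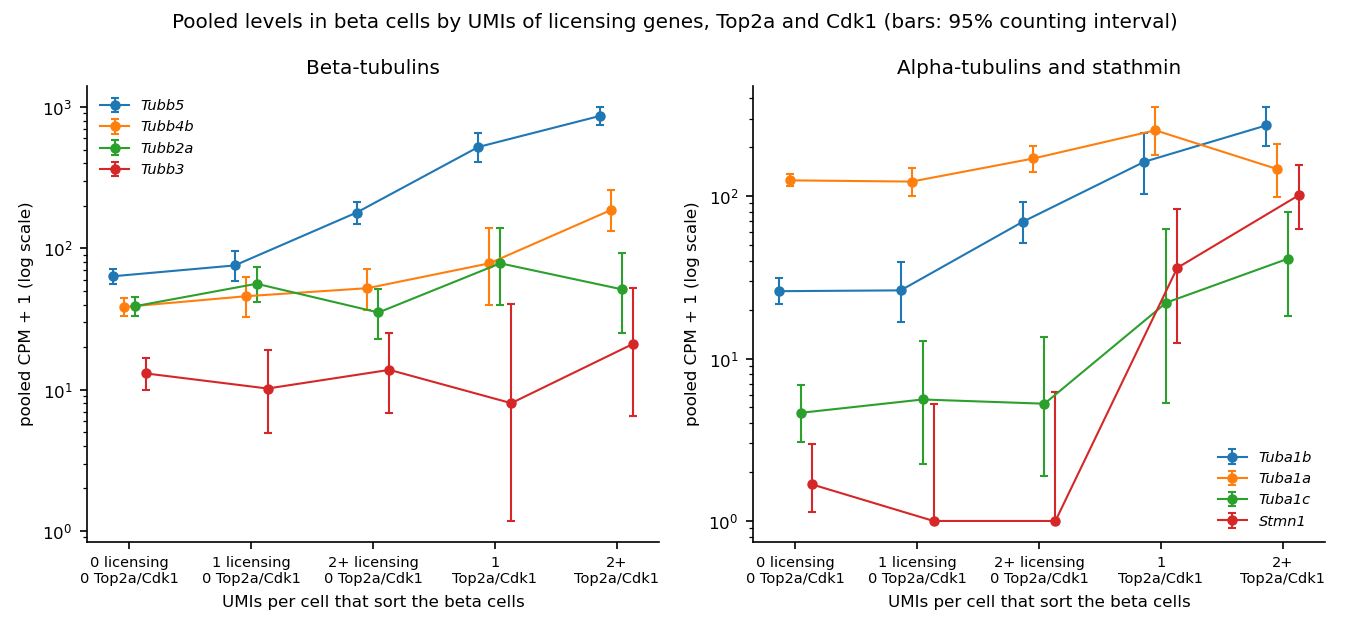
Pooled levels (CPM + 1, log scale) of 8 members in β-cells ordered by their UMIs of licensing genes, Top2a and Cdk1, with 95% counting intervals. Tubb5 goes from 62.4 CPM in 681 cells with none of these UMIs to 864 CPM in 22 cells with at least 2 Top2a or Cdk1 UMIs, and Stmn1 leaves the floor only in the last 2 classes.

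Ordered by these UMIs, the members departed from their level in cells with none of them at different classes. Tubb5 was at 62.4 CPM (95% interval 55.3 to 70.3) in 681 cells with none of the UMIs, 74.7 CPM (57.6 to 95.2) in 126 cells with 1 licensing UMI, 178 CPM (148 to 212) in 84 cells with at least 2, 520 CPM (408 to 653) in 24 cells with 1 Top2a or Cdk1 UMI and 864 CPM (740 to 1003) in 22 cells with at least 2. Each of these 22 cells had at least 1 Tubb5 UMI. Tuba1b stood at 25.0, 25.3, 68.3, 162 and 271 CPM along the same classes. For both, the interval first lay wholly above that of cells with none at 2 licensing UMIs. Stmn1 held 3, 0 and 0 UMIs in the 3 classes without Top2a or Cdk1 UMIs, where a count of 0 allows up to 4.27 CPM in the 84 licensing cells. It then held 5 UMIs, or 35.1 CPM (11.4 to 82.0), and 20 UMIs, or 100 CPM (61.4 to 155). Tubb4b stood at 37.5, 44.8, 51.2, 77.3 and 186 CPM, and only the last interval (131 to 256) lay above the first (32.0 to 43.6). Tuba1a gave 124 CPM (114 to 135), 122, 169 (140 to 203), 253 (177 to 350) and 146 CPM (97.5 to 209), so its interval too lay above the first at 2 licensing UMIs and at 1 Top2a or Cdk1 UMI, and overlapped the first in the last class. Tubb2a gave 37.9, 55.1, 34.2, 77.3 and 50.2 CPM, with no interval wholly above the first. These pooled classes are a description across all samples, and the mix of samples differed between them. PPTx samples gave 372 of 681, 90 of 126, 67 of 84, 21 of 24 and 15 of 22 cells in this order, and the part of this mix in the differences between classes was not tested.

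The make-up of the tubulin pool differed along these classes. A share does not depend on the scaling of a library, so it was computed from the UMIs of each family. Over the 5 classes, Tubb5 gave 41.4% of 664 β-tubulin UMIs (95% Clopper-Pearson interval 37.6 to 45.3), 39.4% of 165 (31.9 to 47.3), 63.5% of 197 (56.3 to 70.2), 74.7% of 99 (65.0 to 82.9) and 76.8% of 224 (70.7 to 82.1). The class with 1 licensing UMI thus lay with the cells that had none. The Tubb2a share was 25.2, 29.1, 12.2, 11.1 and 4.46%, and that of Tubb3 7.98, 4.85, 4.57, 1.01 and 1.79%. The Tubb4b share was 24.9, 23.6, 18.3, 11.1 and 16.5%, lower in the last class than in the first although its own level was higher there. Among the α-tubulins Tuba1a made up 81.3% of 672 UMIs, 80.3% of 132, 70% of 170, 58.1% of 62 and 31.9% of 91, and Tuba1b 16.4, 16.7, 28.2, 37.1 and 59.3%. Comparing cells with and without Top2a or Cdk1 UMIs within each sample, the Tubb5 share was higher and the Tubb2a and Tuba1a shares lower in 8 of 8 samples, and the Tuba1b share was higher in 6 of 8. For Tuba1a, control replicate 1 held 1 α-tubulin UMI in such cells, and control replicate 4 held 7 and differed little, at 85.7% against 86.4%. In all α-cells and PP-cells, those with Top2a or Cdk1 UMIs included, Tubb5 made up 63.4% of 93 and 56.1% of 114 β-tubulin UMIs.

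**Figure D4:**
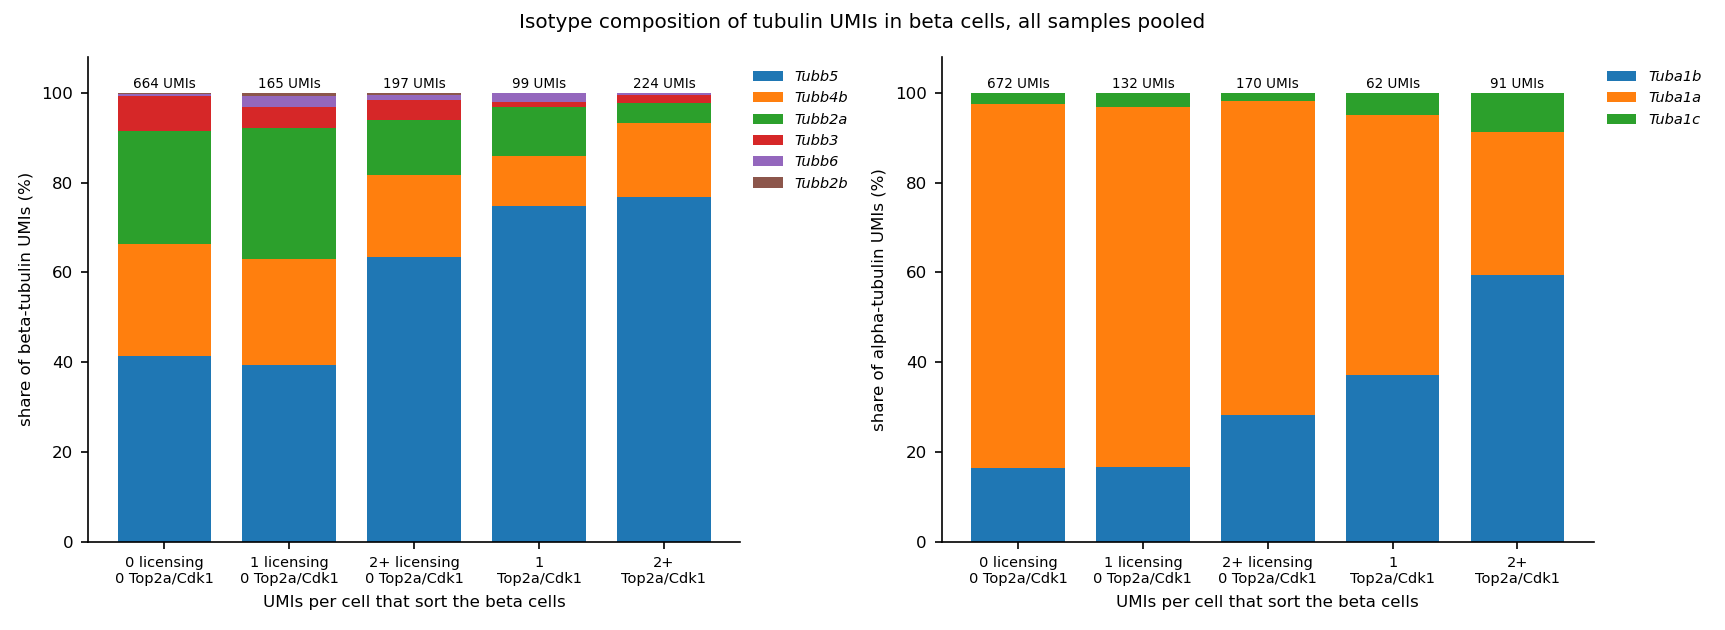
Share (%) of each isotype among the UMIs of 6 β-tubulins, left, and 3 α-tubulins, right, in β-cells ordered by their UMIs of licensing genes, Top2a and Cdk1, all samples pooled, with the number of UMIs above each bar. Tubb5 goes from 41.4% to 76.8% and Tuba1b from 16.4% to 59.3%.

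Levels in PPTx and control β-cells without Top2a or Cdk1 UMIs are described next, to show the isotypes where no such UMI was counted. The choice of genes named this comparison too, so for the members it is a description without a test. Tubb5 stood at 103.5 ± 27.4 CPM (SD, n = 4) in the PPTx and 41.0 ± 9.13 CPM (SD, n = 4) in the control group. The lowest PPTx sample, at 72.5 CPM, lay above the highest control, at 51.5 CPM. The log2 difference fitted by edgeR was 1.12 ± 0.23 (SE). Of all 5569 genes, 0.198% were called higher by edgeR, from which nothing is read for the members. In 4.51% of the 5569 genes every PPTx sample lay above every control sample, and here too nothing is read for the members.

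Tuba1a was at 97.9, 90.2, 92.4 and 113 CPM in the control and 170, 135, 170 and 149 CPM in the PPTx samples, which did not overlap, and its fitted log2 difference was 0.56 ± 0.18. Tubb2a was at 36.1, 32.2, 25.3 and 32.1 CPM against 66.6, 39.8, 43.7 and 53.5 CPM, again without overlap, at 0.63 ± 0.25. Tubb4b, at 32.4 ± 13.1 CPM in the control and 49.2 ± 17.5 CPM in the PPTx group, and Tuba1b, at 22.2 ± 5.399 and 36.3 ± 14.7 CPM, overlapped between the groups. Their fitted log2 differences were 0.71 ± 0.27 and 0.64 ± 0.30. Over the alternatives the difference ran from 0.48 to 0.68 for Tuba1a, 0.13 to 0.81 for Tubb2a, 0.42 to 0.91 for Tubb4b and 0.29 to 0.84 for Tuba1b. The lowest values of Tubb2a and Tubb4b came from thinned cells, where Tuba1b did not pass the filter, and Tuba1b was lowest in β-cells that also lacked licensing UMIs and stood at 0.36 without PPTx replicate 1. The median of all genes was -0.005 with TMM scaling and 0.12 with library totals, so the CPM differences include a difference of scale that the fitted values do not.

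**Figure D5:**
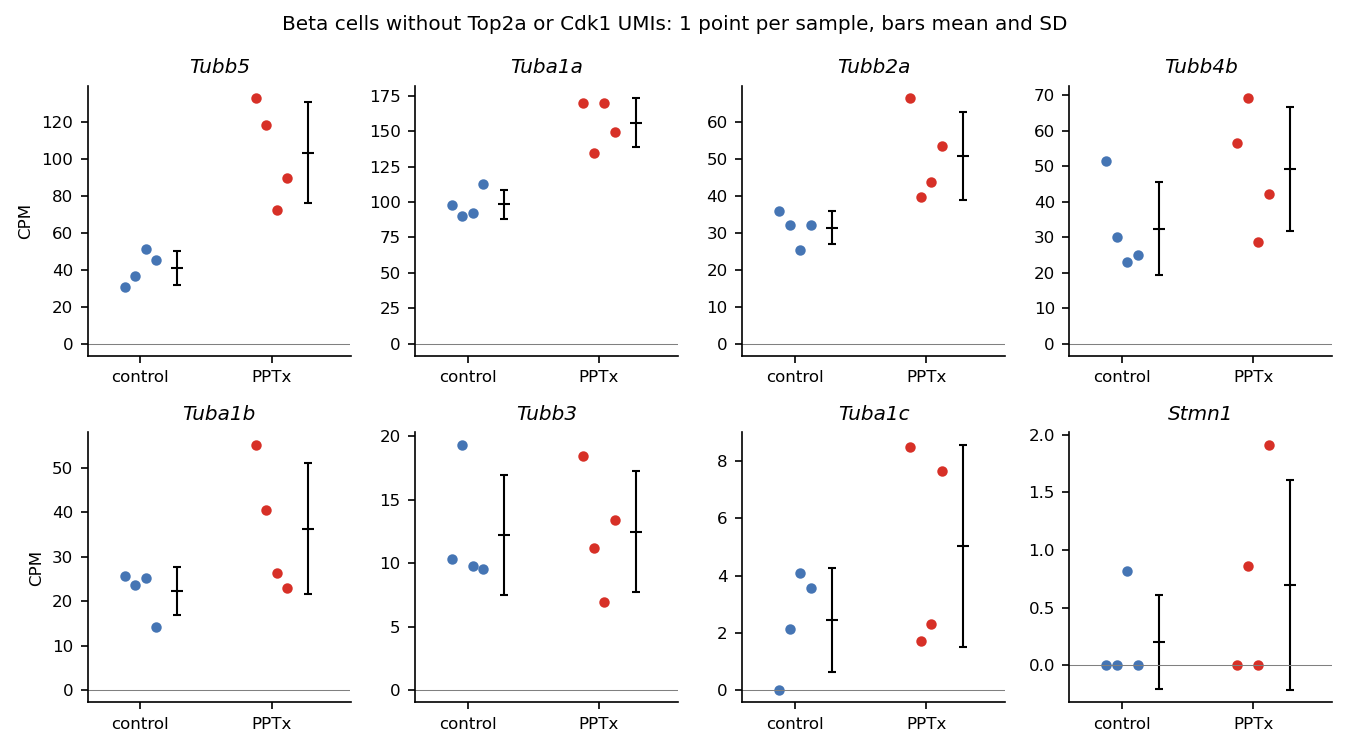
Levels (CPM) of 8 members in β-cells without Top2a or Cdk1 UMIs, with 1 point per sample and bars for the mean and SD of 4 samples. The 4 PPTx samples of Tubb5 lie between 72.5 and 133 CPM, above the 4 control samples at 30.9 to 51.5 CPM, while the groups of Tubb3 overlap.

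The fitted Tubb5 difference lay between 0.89 and 1.302 over the alternatives run. The lowest value, 0.89, came from β-cells that also lacked licensing UMIs. The summed level of the 4 PP markers was higher in the PPTx β-cells, at 2373 to 3930 CPM against 355 to 1867 CPM. Acinar markers summed to 5.75 to 111 CPM against 2.15 to 15.5 CPM, and the part of either in the differences was not tested.

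The filter on low counts left out the other members. Tubb3 was at 12.5 ± 4.78 CPM in the PPTx and 12.2 ± 4.74 CPM in the control group, and Tuba1c at 5.04 ± 3.52 against 2.45 ± 1.83 CPM (SD, n = 4 each), both with overlap. Stmn1 had 2 UMIs in the PPTx and 1 in the control group, Tubb6 had 7 and 2, and Tubb2b 1 and 2, and the few counts limit what could be detected. The share of Tubb5 among β-tubulin UMIs was 24.0, 30.9, 46.3 and 39.6% in the control and 48.2, 48.6, 47.7 and 44.8% in the PPTx samples. The control samples with the lowest shares rested on 25 and 55 UMIs. The groups overlapped. The Tubb3 share was 8, 16.4, 8.82 and 8.33% in the control and 6.67, 4.61, 4.55 and 6.67% in the PPTx samples, without overlap, on 2 to 13 Tubb3 UMIs per sample. The Tuba1b share was 18.2 ± 4.89% against 18.2 ± 5.93% (SD, n = 4 each).

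PP-cells are described in the same way. In the 3 control and 4 PPTx samples with at least 5 PP-cells, Tubb5 was at 220, 123 and 47.0 CPM in the control and 141, 76.7, 26.5 and 45.7 CPM in the PPTx group, which overlapped. The log2 difference was -0.76 ± 0.59 for Tubb5 and -0.35 ± 0.41 for Tuba1a, as fitted by edgeR. The Tubb5 level of 220 CPM was that of control replicate 2, and without its 1 cell with Top2a or Cdk1 UMIs it was 51.8 CPM. Tubb5 then did not pass the filter on low counts, and the Tuba1a difference was -0.25. Both values rested on single samples. Without control replicate 2 they were -0.04 for Tubb5 and 0.14 for Tuba1a, and without control replicate 4 they were -1.28 and -0.82. Of all 598 genes, 0.167% were called, from which again nothing is read for the members. The PPTx difference of Tubb5 in PP-cells minus that in β-cells, both without Top2a or Cdk1 UMIs, was -0.92 ± 0.59. Of 4951 genes, 0.0606% were called in that fit. α-cells and δ-cells were not fitted, since at least 3 samples per group with 5 cells were asked for, and for α-cells the PPTx group had 2. The α-cell level of Tubb5 was 0, 139, 129 and 73.5 CPM in the control samples and 347 and 54.4 CPM in the 2 PPTx samples with at least 5 α-cells, and the sums at 129 and 347 CPM, 114 and 113 CPM without them, each included a cell with Top2a or Cdk1 UMIs.

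Whether the contrast between β-cells with and without Top2a or Cdk1 UMIs differed between the groups was fitted in the 6 samples with at least 2 such cells. No gene of 4951 was called by edgeR or by DESeq2, a share of 0%, and 208 and 119 genes had an unadjusted p under 0.05. The Tubb5 contrast in the PPTx group minus that in the control group was -0.91 ± 0.44 on the log2 scale. For Tuba1b the difference was -0.36 ± 0.65 and for Stmn1 -1.32 ± 2.31, both within 1 SE of 0. The control arm was control replicates 3 and 4, with 4 such cells each, and of these replicate 4 held 0 UMIs of Tuba1b, so these values rest on few cells and a fit without either leaves an arm of 1 sample.

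Other parts of the microtubule system were followed through lists. Of 11 other tubulins 2 were tested. Tubg1, the γ-tubulin that nucleates microtubules at the centrosome, had 27 UMIs in cells with and 98 in cells without Top2a or Cdk1 UMIs, a fitted log2 difference of 1.84 ± 0.46, whereas Tuba4a had -0.47 ± 0.44. In the PPTx comparison they were at 0.60 ± 0.32 (edgeR, adjusted p = 0.618) and 0.52 ± 0.29 (adjusted p = 0.633). Among the other stathmins Stmn2 and Stmn4 had 0 UMIs in β-cells, and Stmn3 had 5 and 74 UMIs. No member of any list was called in the PPTx or the licensing comparison by edgeR. The lists were tubulin folding (18 genes tested for PPTx, median log2 difference 0.14), microtubule-associated and plus-end proteins (14, -0.16), tubulin modification and severing (6, -0.38) and interphase motors (15, -0.08), beside -0.005 for all genes. At an unadjusted p of 0.05 they held 0, 2, 1 and 2 genes in that order, beside 503 of all 5569 genes tested.

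Genes with the most similar pattern were sought over 25 sums of a sample and cell class with at least 5 cells, among 1736 genes with a mean of at least 50 CPM. These points share libraries and the contrast described above, so the correlations are a description. Nearest to Tubb5 were Cks1b, a subunit of cyclin-dependent kinases (Pearson r = 0.869), Pcna (0.850) and Tuba1b (0.845). Without the 4 sums of cells with Top2a or Cdk1 UMIs these became 0.697, 0.660 and 0.654. Nearest to Tuba1b were Tubb5, Pcna (0.786) and Clic4 (0.744). Tuba1a had another set, Snx1 (0.752), Serinc3 (0.699) and Med28 (0.668), and its r with Tubb5 was 0.345 over all sums and 0.015 over the remaining 21.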

How the data were processed

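Single islet cells of 4 control and 4 PPTx samples were analysed. Per the labels, libraries came from droplets of a ddSEQ isolator with a Chromium 3′ kit, while the paper's methods name the SureCell kit. The authors aligned reads to mm10 and deposited whole-number UMI counts per gene and cell, without normalization. How Cell Ranger treated reads shared by gene copies is not given in the sources used here. Deposited cells had at least 2005 UMIs. The limits for a cell were 100 and 3000 genes, and 100 and 20000 UMIs, and 8 cells fell outside them. Cells of mixed hormones were left out, which also removes doublets of 2 types, and no doublet caller was run. The depth per sample was 236645 to 1580152 UMIs.

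Counts were summed per sample and class, CPM computed, and groups tested by edgeR 4.0.16 (filterByExpr, TMM, quasi-likelihood, Benjamini-Hochberg over all genes, threshold 0.05) in R 4.3.3, with DESeq2 1.42.0 as an alternative. Samples are pools, so p-values refer to pools and not to single mice, and edgeR shares its estimate of spread across genes. In the licensing split its p-values were those of a normal distribution. There the spread of a single gene between pools hardly entered, and the small p-values do not measure it. Poisson and Clopper-Pearson intervals are at 95%. Thinning drew 2700 UMIs per cell and left out 50 control and 92 PPTx cells. In fits on thinned cells, the classes by Top2a, Cdk1 and licensing UMIs were set from the UMIs left after thinning. Tests recovered changed genes on simulated data in the PPTx and licensing comparisons, but few in the tests of a difference between contrasts. The members, lists and tests were chosen with earlier results of these data known, and the choice of members named the PPTx and the Top2a or Cdk1 contrast, so members are described there without a test, although a test of the PPTx contrast had been planned. The rule for naming other genes took list genes called by edgeR, of which there were none, and the 3 genes most like each member with a mean of at least 50 CPM. Tubg1, Tuba4a, Stmn2, Stmn3 and Stmn4 were named after their values were seen. The test of PP-cells against β-cells, the Tubb5 share, the ratios within each group, the α-cells and PP-cells without Top2a or Cdk1 UMIs and the β-cells without licensing UMIs were added after seeing the data. Protein sequences were not used here.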

Additional observations from a re-analysis of the deposited data

Results flagged for a closer look

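Samples standing apart were sought in 20 groups of 4 samples, the levels of the 10 members in β-cells without Top2a or Cdk1 UMIs, by Dixon's test at 0.829, and 3 groups held one. Chance gives about 1 in 20 for continuous values. Tubb3 stood at 19.3 CPM in control replicate 2, on 9 UMIs, above the other controls at 9.51 to 10.3 CPM. Stmn1 stood at 0.818 CPM in control replicate 3, and Tubb2b at 1.91 CPM in PPTx replicate 4. Both of these rested on 1 UMI in a group otherwise at 0, where the test passes whatever the value, so that chance rate does not hold for them.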

How the results depend on the processing

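The count of genes called in β-cells without Top2a or Cdk1 UMIs between PPTx and control was 15, and it became 55 without a filter on low counts, 5 in thinned cells, 27 with totals without TMM, 7 without licensing cells and 0 to 20 when 1 sample was left out, the lowest without PPTx replicate 1 (0), control replicate 1 (1) and control replicate 2 (2). In PP-cells 1 gene was called, 2 without the filter, 0 at a hormone ratio of 2 and 1 in every fit that left out 1 sample. In the licensing split 18 became 6 after thinning and 3 to 15 with 1 sample left out, the lowest without PPTx replicate 1 (3), PPTx replicate 2 (5) and control replicate 3 (9). In the difference between the groups in the Top2a or Cdk1 contrast 0 became 0 to 4 (4 without PPTx replicate 4), and in the difference between PP-cells and β-cells 3 became 1 by DESeq2, 5 without the filter and 2 to 4 with 1 sample left out. The Tubb5 share was 12.1 percentage points higher in the PPTx group, 20.5 points in thinned cells and 8.38 to 15.8 points with 1 sample left out.

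Directions turned for some members. In the licensing split these were Tuba1a after thinning (-0.0177) and Tubb4b without the filter (-0.0220). In the contrast between the groups they were Tubb4b (1.44) and Tuba1a (-1.13) after thinning. For PPTx against control they were, as differences in CPM, Tubb6 after thinning (-0.334), Tubb3 without hormone genes (-1.55), in all β-cells (-1.07) and without cells over 12000 UMIs (-0.0672), and Tubb2b without those cells (0.137). With 1 sample left out, log2 differences ran from -0.820 to 0.145 for Tuba1a in PP-cells, from -0.0149 to 1.08 for Tuba1a and -0.927 to 7.95 for Tuba1b in the contrast between the groups, and from -0.115 to 5.79 for Tubb4b and -0.0689 to 6.21 for Tuba1b between PP-cells and β-cells. The values of 7.95, 5.79 and 6.21 come from fits whose remaining control sums in the smaller class, 1 in the first and 2 in the others, hold 0 UMIs of the gene, so they are no measure of size, and where 1 control sample is left it is assumed to vary like the others. Differences in CPM ran from -1.73 to 2.61 for Tubb3, -0.502 to 0.206 for Tubb2b and -0.0296 to 1.70 for Tubb6. Of the settings for single members, 503 kept direction and side of the threshold or moved by less than the spread, 25 turned direction, 4 moved by more than the spread and 13 kept direction but no longer passed the threshold. Of these 13, 7 were Tuba1b in the licensing split, and 6 were Tubb5 between PPTx and control, in thinned cells, without licensing cells and without control replicate 1, 2 or 4 or PPTx replicate 1, a comparison whose planned test is not used for the members. The causes were not tested. α-cells and δ-cells were not fitted, since at least 3 samples per group were asked for. In thinned cells Tuba1c and Stmn1 could not be fitted, nor Tuba1b for PPTx against control or Tubb2a in the licensing split.

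Replicate numbers were not taken to pair the samples, since not every same-numbered pair correlated above 0.1. Whether same-numbered samples were processed together was not tested. Deviations of same-numbered samples correlated at 0.1004, 0.0226, 0.0900 and 0.178, and 3 of 4 numbers gave the highest correlation to their own partner. With the replicate block, 31 genes were called in β-cells and 3 in PP-cells, and the log2 difference of Tubb5 was 1.04 in β-cells and -1.53 in PP-cells.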
